A study of Mus musculus with 12 samples.

Results

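The brains compared here are 6 mouse brains at embryonic day 18 (E18) in which Hox genes were expressed and 6 in which they were nearly absent, all 12 brains of the series. They were grouped by a measured value, the mean FPKM (a level scaled for transcript length and for the number of mapped fragments) of the 15 Hox genes in the table of genes. Brains at 1 FPKM or more form the group with Hox expression, and brains under 0.1 FPKM form the group without. No brain lay between these limits. The group with Hox expression holds 1 brain after prenatal alcohol exposure (PAE), the female ES19-4, and 5 saccharin control (SAC) brains, the females SAC12-5, SAC26-5 and SAC26-7 and the males SAC12-7 and SAC26-8. The group without holds 5 PAE brains, the females ES23-7 and ES27-4 and the males ES19-8, ES23-4 and ES27-1, and 1 SAC brain, the male SAC12-6. All were wild type C57BL/6 whole brains. PAE dams drank 10% ethanol with 0.066% saccharin for 4 h per day, during mating and throughout pregnancy, and SAC dams had 0.066% saccharin alone. Each brain gave 1 library of polyadenylated RNA, and the sources used here do not give where the caudal border of the dissection lay. What the split can show is which other genes went with Hox expression over these 12 brains, as candidate marks of caudal tissue at E18. The split largely overlaps the treatment, and whether any such gene marks caudal tissue was not tested.

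Hox genes encode homeodomain transcription factors that lie in clusters and pattern the body from head to tail. In the nervous system they are expressed in the hindbrain and spinal cord, with the front border of each gene set by its place in the cluster, and are silent in the forebrain and midbrain. Neurons of the medulla and cord keep their Hox genes into late gestation, so Hox RNA marks such tissue. A lack of Hox RNA does not show that a brain held no tissue from behind the midbrain. Hox proteins bind DNA together with the cofactors of the Pbx and Meis families.

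The mean Hox level, which chose the groups and is given as a description, was 4.32 FPKM in ES19-4, 4.18 in SAC12-5, 2.46 in SAC12-7, 1.72 in SAC26-5, 1.97 in SAC26-7 and 4.82 in SAC26-8. It was 0.00317 FPKM in ES19-8, 0.0119 in ES23-4, 0.00880 in ES23-7, 0.00432 in ES27-1, 0.00761 in ES27-4 and 0.0309 in SAC12-6. The brain just inside the upper limit was therefore SAC26-5, and the brain just under the lower limit was SAC12-6, the control brain without Hox expression. All 15 Hox genes were above 0 in each of the 6 brains with Hox expression, and 1 of them averaged under 0.5 FPKM over the 12 brains. No Hox gene reached 1 FPKM in any of the 6 brains without, while 9 to 15 of them did so in each brain with Hox expression.

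Hoxa5, which is active from the caudal medulla backward, had the highest level of the family. It stood at 17.2 FPKM in ES19-4, 17.1 in SAC12-5, 10.9 in SAC12-7, 6.66 in SAC26-5, 6.33 in SAC26-7 and 20.9 in SAC26-8, against at most 0.0458 FPKM in the brains without. Hoxb5, its paralog in the B cluster, ranged between 3.73 and 8.26 FPKM in the brains with and reached at most 0.0370 FPKM in the brains without. Hoxa4, Hoxc4 and Hoxb6 were listed at 0 in all 6 brains without. Every Hox gene of the table was higher in each brain with Hox expression than in each brain without, though narrowly for Hoxb7 (0.0888 against 0.0620 FPKM). The mean of these genes set the groups, so this is a description.

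The most caudal members of the table varied most among the brains with Hox expression. Hoxb8, whose front border lies in the spinal cord, was at 4.73 FPKM in ES19-4, 2.29 in SAC12-5 and 4.64 in SAC26-8, but at 0.0773 in SAC12-7, 0.493 in SAC26-5 and 0.566 in SAC26-7. Hoxb7 divided the brains in the same way, with 3.31, 2.05 and 3.21 FPKM in ES19-4, SAC12-5 and SAC26-8, against 0.253, 0.334 and 0.0888 FPKM in SAC12-7, SAC26-5 and SAC26-7. Paralog groups 6 to 8 made up 22.4% of the summed Hox FPKM in ES19-4, 15.5% in SAC12-5 and 19.2% in SAC26-8, and 8.94%, 13.1% and 8.59% in SAC12-7, SAC26-5 and SAC26-7. The rear genes thus divided the 6 brains with Hox expression into 3 with both above 2 FPKM and 3 with both under 1 FPKM.

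**Figure D1:**
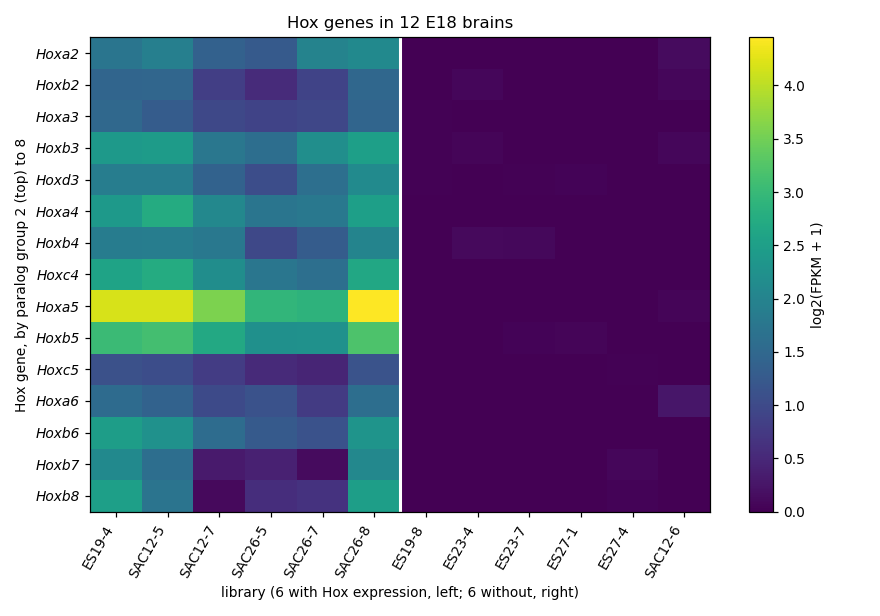
Level of the 15 Hox genes, as log2(FPKM + 1), in each of the 12 libraries, with genes as rows and the 6 brains with Hox expression to the left of the 6 brains without. Every gene is coloured in the 6 brains on the left, most strongly Hoxa5 (6.33 to 20.9 FPKM), and close to 0 in the 6 on the right.

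Over the 13411 genes other than Hox genes whose mean FPKM was 0.5 or more, 879 (6.55%) were higher and 624 (4.65%) lower in the brains with Hox expression at an adjusted p under 0.05, and 3936 had an unadjusted p under 0.05 (limma on log2(FPKM + 1)). The brains of both groups did not overlap for 355 genes that were higher (2.65%) and 222 that were lower (1.66%), and 318 and 183 of these were also called. Most differences were small: the median size of a called difference was 0.28 on the log2 scale. Only 102 called genes were at least 1.5-fold higher and 12 at least 1.5-fold lower, so the genes that set the groups far apart were nearly all higher with Hox expression. Of the 102, 41 belonged to at least 1 of 23 lists of regional and cell type markers and 61 to none. The counts rested on single brains. Without SAC26-8 there were 317 higher and 159 lower genes, without ES23-4 323 and 133, without SAC26-7 356 and 183, without SAC12-5 479 and 272, without SAC12-7 521 and 297, and without ES27-4 585 and 341. The lower count was 375 without ES19-8, 350 without ES23-7 and 350 without ES27-1, and leaving out SAC12-6 raised the counts to 1312 and 1073. With both SAC12-5 and SAC26-7 left out, which were high for genes of sensory ganglia and pituitary, 35 genes were higher and 11 lower, and all 46 were among the calls over 12 brains.

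Because 5 of the 6 brains with Hox expression were SAC and 5 of the 6 without were PAE, the Hox split and the treatment can be told apart only through ES19-4 and SAC12-6. Both discordant brains are therefore given beside the main results. For the 102 genes at least 1.5-fold higher, ES19-4 lay above all 5 PAE brains without Hox expression in 100. SAC12-6 lay below all 5 SAC brains with Hox expression in 65, and above all 5 PAE brains without in 84. Both of these held for 51 genes, and for 18 SAC12-6 was no higher than the highest PAE brain. The 102 genes were chosen on groups that already held ES19-4 and SAC12-6, so these counts are descriptions. In whole tissue, fewer cells of a type and less RNA per cell cannot be told apart. FPKM is scaled to the mapped fragments of a library, so more RNA from 1 region lowers the values of genes of other regions. A fall below may thus be relative, which was not tested. A gene near 0 in 1 group passed the filter on low values only where the other group was high, so counts of such genes are descriptions of what the table holds.

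Transcription factors of hindbrain and spinal neurons were higher as a list in the brains with Hox expression. Of 26 tested members of this list 10 (38.5%) rose and none fell, against 6.55% higher and 4.65% lower over all 13411 genes. The median log2 difference was 0.67, against -0.01 over all genes. In 7 members the 6 and 6 brains did not overlap, against 2.65% of all genes that were higher in this way. The same shares over all genes apply to each list below. The count of rises ran between 7 and 14 with any 1 library left out, and was 14 without SAC12-6.

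Pax2, a paired domain factor of dorsal inhibitory interneurons and of the midbrain to hindbrain border, lies on chromosome 19 (44756045 to 44837871 in GRCm38). It was 1.22 to 3.18 FPKM (median 2.10) with Hox expression and 0.0193 to 0.447 FPKM (median 0.0451) without, a log2 difference of 1.47 (SE 0.13, adjusted p = 0.000108). Lbx1, which specifies dorsal interneurons of the hindbrain and cord, had 0.992 to 2.72 FPKM (median 1.70) against 0 to 0.334 FPKM (median 0.0716), a log2 difference of 1.29 (SE 0.15, adjusted p = 0.000983). Both were flat among the 5 PAE brains without Hox expression, at no more than 0.0797 FPKM for Pax2 and 0.0862 FPKM for Lbx1, while SAC12-6 stood somewhat above them at 0.447 and 0.334 FPKM.

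Tlx3 and Prrxl1, factors of dorsal excitatory and somatosensory relay neurons, showed the same arrangement. Tlx3 was 0.823 to 2.12 FPKM (median 1.59) with Hox expression and 0 to 0.626 FPKM (median 0.0706) without, a log2 difference of 1.15 (SE 0.15, adjusted p = 0.00211). Prrxl1 was 0.586 to 2.45 FPKM (median 1.82) against 0.0462 to 0.232 FPKM (median 0.0966), also a log2 difference of 1.15 (SE 0.17, adjusted p = 0.00554). No brain without Hox expression reached the lowest brain with it for either gene.

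Other factors of the list were higher with Hox expression by smaller log2 differences. Some, such as Lmx1b and Lhx1, also had medians above 1 FPKM without it. Lmx1b, needed by serotonergic and dorsal horn neurons, had 1.85 to 4.76 FPKM (median 3.39) against 0.187 to 1.83 FPKM (median 1.23), a log2 difference of 1.07 (SE 0.22, adjusted p = 0.0172). Nkx6-1, a factor of the ventral progenitors of motor neurons, had 0.773 to 2.24 FPKM (median 1.34) against 0.113 to 0.716 FPKM (median 0.396), a log2 difference of 0.76 (adjusted p = 0.0127). Lhx1, which also marks other brain regions, had 7.01 to 12.2 FPKM (median 9.56) against 1.497 to 7.12 FPKM (median 5.25), a log2 difference of 0.92 (SE 0.25, adjusted p = 0.0339), its groups overlapped slightly, and the call was lost without ES19-8, ES23-4, SAC12-5, SAC12-7, SAC26-7 or SAC26-8 (adjusted p up to 0.0776). Lhx5 and Nkx6-2 were also called, at log2 differences of 0.43 and 0.40, and both calls were lost without ES19-8, ES23-4, SAC12-5, SAC26-7 or SAC26-8, that of Nkx6-2 also without ES19-4, ES23-7, ES27-4 or SAC12-7 (adjusted p up to 0.0648 for Lhx5 and 0.0685 for Nkx6-2).

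The start regions of the genes that rose were read for the letters of sites that Hox proteins share with their cofactors. The 250 bases before the gene start, from RefSeq (GRCm38.p6), were searched on both strands for TGATNNAT, a Hox-Pbx motif, and for TGACAG, a Meis motif. The 2 motifs have different letters and their matches were counted separately. A promoter was found for 69 of the 102 genes at least 1.5-fold higher and for 10351 of the genes tested. TGATNNAT occurred in 10 of the 69 (14.49%), against 347 of the 10351 (3.352%), and the 10 were AW551984, Agt, Cldn10, Defb11, Hap1, Serpinb1b, Slc6a5, Sncg, Spock3 and Tph2. TGACAG occurred in 6 of the 69 (8.696%), against 1400 of the 10351 (13.53%), and the 6 were Ebf3, Lhx1, Lrtm2, Pcp4l1, Slc17a8 and Zfp853. These shares describe letters in a short window. The 2 sets of promoters were not matched for base composition, on which such shares depend, and no test was made of them. The windows of 3 genes that rose are shown, each read along the minus strand and 5' to 3' toward the gene start, with the match in capitals. All 3 were also present in most brains without Hox expression, and each lost its call without some single libraries. Tph2, from the serotonin neurons of the raphe, holds a Hox-Pbx match (chr10:115185023-115185272, minus strand). Lhx1, from interneurons, holds a Meis match on the opposite strand (chr11:84525535-84525784, minus strand), and Ebf3, a factor of early postmitotic neurons, holds a Meis match (chr7:137314446-137314695, minus strand).
Tph2: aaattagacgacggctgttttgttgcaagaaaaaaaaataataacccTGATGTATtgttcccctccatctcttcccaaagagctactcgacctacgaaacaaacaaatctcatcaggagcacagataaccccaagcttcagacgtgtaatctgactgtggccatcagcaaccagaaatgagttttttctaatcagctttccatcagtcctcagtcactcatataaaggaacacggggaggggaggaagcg
Lhx1: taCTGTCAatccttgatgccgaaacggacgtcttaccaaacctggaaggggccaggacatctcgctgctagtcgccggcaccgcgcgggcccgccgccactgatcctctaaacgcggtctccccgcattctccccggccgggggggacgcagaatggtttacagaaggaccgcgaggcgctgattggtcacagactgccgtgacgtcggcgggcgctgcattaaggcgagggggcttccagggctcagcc
Ebf3: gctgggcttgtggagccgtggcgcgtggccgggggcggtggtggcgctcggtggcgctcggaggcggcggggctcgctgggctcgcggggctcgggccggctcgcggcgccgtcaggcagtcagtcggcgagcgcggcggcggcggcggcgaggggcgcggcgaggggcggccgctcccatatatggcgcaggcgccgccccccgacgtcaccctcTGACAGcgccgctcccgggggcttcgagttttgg

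Ebf3 itself was 10.3 to 16.3 FPKM (median 12.5) in the brains with Hox expression and 2.17 to 10.5 FPKM (median 7.19) in the brains without, a log2 difference of 0.97 (adjusted p = 0.0297). SAC26-5, the lowest brain with Hox expression, was at 10.3 FPKM and SAC12-6, the highest without, at 10.5 FPKM, and the call was lost without ES19-8, ES23-4, SAC12-5, SAC12-7, SAC26-7 or SAC26-8 (adjusted p up to 0.0692).

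Genes of motor and cholinergic neurons rose nearly as a whole: 11 of 13 tested members (84.6%) rose, against 6.55% of all genes, and none fell. The median log2 difference was 0.74. The groups did not overlap for 10 members, against 2.65% of all genes that were higher in this way. Between 9 and 11 were called with any 1 library left out. Prph, which encodes peripherin, the intermediate filament of neurons with axons leaving the brain and cord (chromosome 15, 99055174 to 99058978), had 8.12 to 18.2 FPKM (median 9.83) with Hox expression and 1.12 to 2.01 FPKM (median 1.60) without. Its log2 difference was 2.30 (SE 0.20, adjusted p = 8.51e-05). SAC12-5 and SAC26-7 were highest at 18.2 and 18.1 FPKM, while the other 4 brains with Hox expression were at 8.12 to 10.9 FPKM, and ES19-4 was at 8.14 FPKM.

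The neurofilament genes rose with it. Nefh, the heavy chain of large myelinated axons, was 8.36 to 14.5 FPKM (median 10.3) against 2.03 to 5.18 FPKM (median 3.28), a log2 difference of 1.496 (SE 0.17, adjusted p = 0.000873). Nefm, the medium chain, was 70.4 to 102 FPKM (median 86.0) against 30.6 to 54.4 FPKM (median 40.3), a log2 difference of 1.03 (SE 0.12, adjusted p = 0.00123), and Nefl rose by 0.89 (adjusted p = 0.00182). The gene models of Nefm and Nefl overlap on opposite strands in the table, and it is not stated whether counting used strand, so the share of each is uncertain.

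Genes of cholinergic neurons were at low levels in both groups. Slc18a3, which loads acetylcholine into vesicles, had 0.899 to 1.68 FPKM (median 1.17) against 0.195 to 0.537 FPKM (median 0.298), a log2 difference of 0.74 (SE 0.09, adjusted p = 0.00171). Slc5a7, the choline transporter of the terminal, had 1.103 to 2.38 FPKM (median 1.76) against 0.417 to 1.102 FPKM (median 0.788), so that the groups nearly touched, and a log2 difference of 0.64 (adjusted p = 0.0108). Ret, the receptor subunit for glial cell line-derived neurotrophic factor that motor neurons carry, had 1.97 to 3.64 FPKM (median 2.96) against 0.766 to 1.83 FPKM (median 1.01), a log2 difference of 0.91 (adjusted p = 0.00356). Isl1, a factor of motor neurons and also of striatal neurons, was not called, at 5.47 to 9.20 FPKM with Hox expression and 7.34 to 10.6 FPKM without (log2 difference -0.23, adjusted p = 0.173).

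Glycine is the fast inhibitory transmitter of brainstem and cord. Of 11 tested genes of glycinergic and inhibitory transmission 5 (45.5%) rose, against 6.55% of all genes, and none fell (median log2 difference 0.26). The count of rises was 4 to 7 with 1 library left out. Slc6a5, the glycine transporter GlyT2 that defines glycinergic neurons (chromosome 7, 49910146 to 49963856), had 0.855 to 4.32 FPKM (median 2.07) with Hox expression against 0 to 0.302 FPKM (median 0.0326) without, a log2 difference of 1.52 (SE 0.19, adjusted p = 0.00171). SAC26-8 was highest at 4.32 FPKM, ES19-4 had 1.61 FPKM, and no PAE brain without Hox expression exceeded 0.0710 FPKM.

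The receptors followed with smaller differences. Glra1, the adult glycine receptor subunit, had 0.460 to 1.74 FPKM (median 0.869) against 0 to 0.405 FPKM (median 0.122), a log2 difference of 0.73 (SE 0.14, adjusted p = 0.0125). Glra3 had 0.782 to 1.01 FPKM against 0.368 to 0.651 FPKM, a log2 difference of 0.32 (adjusted p = 0.0150). Slc12a5, the chloride exporter that makes glycine inhibitory, had 13.4 to 17.7 FPKM (median 15.5) against 6.18 to 12.6 FPKM (median 11.3), a log2 difference of 0.55 (adjusted p = 0.0273, up to 0.0651 and lost without ES23-4, SAC12-5, SAC12-7, SAC26-7 or SAC26-8). Gphn, the scaffold of inhibitory synapses throughout the brain, rose by only 0.23 (adjusted p = 0.0161), although its groups did not overlap either.

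**Figure D2:**
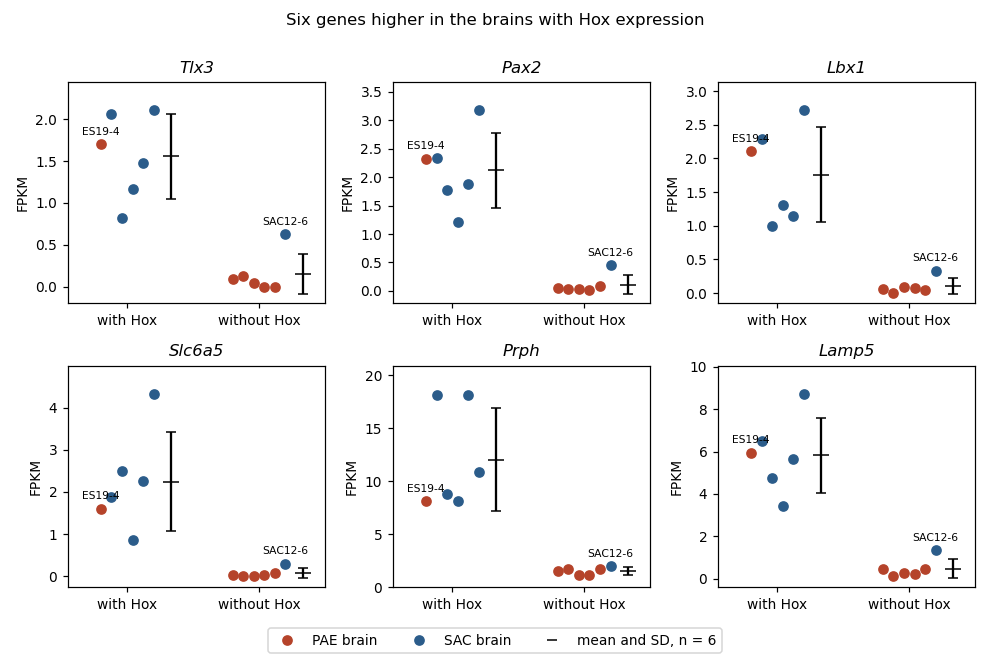
FPKM of Tlx3, Pax2, Lbx1, Slc6a5, Prph and Lamp5 in the 6 brains with Hox expression (left in each panel) and the 6 without (right), with PAE brains in red, SAC brains in blue, and bars for the mean and SD (n = 6 each). The single PAE brain on the left lies among the SAC brains, and the single SAC brain on the right is the highest of its group in each panel.

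The genes with the largest differences outside these lists, or in more than 1, were of other kinds. Lamp5, a membrane protein of vesicles in inhibitory terminals (chromosome 2, 136052239 to 136069917), had 3.44 to 8.70 FPKM (median 5.81) with Hox expression and 0.133 to 1.34 FPKM (median 0.358) without, a log2 difference of 2.21 (SE 0.19, adjusted p = 8.51e-05). Sncg, gamma-synuclein, which is abundant in neurons of cranial nerve nuclei and ganglia, had 23.7 to 50.2 FPKM (median 41.7) against 2.44 to 11.7 FPKM (median 7.88), a log2 difference of 2.32 (SE 0.27, adjusted p = 0.00118). Both were separated by a wide gap, and in both SAC12-6 was the highest of the brains without Hox expression.

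Syt2, the synaptotagmin of fast-releasing brainstem terminals, had 1.65 to 2.46 FPKM (median 1.98) against 0.524 to 0.968 FPKM (median 0.583), a log2 difference of 0.90 (SE 0.08, adjusted p = 8.51e-05). It overlaps Ppp1r12b on the other strand, so its level is uncertain. Ngfr, the p75 neurotrophin receptor, had 9.26 to 13.3 FPKM (median 10.9) against 4.84 to 6.16 FPKM (median 5.33), a log2 difference of 0.88 (SE 0.08, adjusted p = 0.000108), and here SAC12-6 lay within the range of the PAE brains without Hox expression. Mab21l2, a developmental factor of the dorsal midbrain and hindbrain whose model lies within Lrba, had 17.6 to 29.5 FPKM (median 25.4) against 1.17 to 8.65 FPKM (median 7.40), a log2 difference of 1.91 (SE 0.31, adjusted p = 0.00842), with ES23-7 far below the others at 1.17 FPKM.

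The smallest p of all belonged to Gm43796, a predicted gene with no assigned role. It had 8.44 to 18.4 FPKM (median 13.6) in the brains with Hox expression and 0 to 0.541 FPKM in the brains without, a log2 difference of 3.70 (SE 0.17, adjusted p = 7.91e-08). Its model overlaps Atp6v0c and Tbc1d24, neither of which was called (adjusted p of 0.130 and 0.345), so its reads may have been divided among these models and its level is uncertain.

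Serotonin and noradrenaline neurons sit in the raphe and locus coeruleus of the hindbrain. Of 11 tested genes of this list 4 (36.4%) rose, against 6.55% of all genes, and none fell (median log2 difference 0.47). Only 2 were called without ES23-4, ES23-7, SAC12-5, SAC26-7 or SAC26-8, and 6 without SAC12-6. Dbh, the enzyme that makes noradrenaline, had 0.795 to 1.61 FPKM (median 1.09) with Hox expression and 0 to 0.885 FPKM (median 0.0375) without, a log2 difference of 0.89 (SE 0.15, adjusted p = 0.0105). The overlap came from 1 brain: the 5 PAE brains without Hox expression had at most 0.0794 FPKM, and SAC12-6 had 0.885 FPKM, above SAC12-5 and SAC12-7 with Hox expression.

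Tph2, the enzyme of serotonin synthesis whose promoter is shown above, had 0.981 to 2.35 FPKM (median 1.88) against 0 to 1.49 FPKM (median 0.707), a log2 difference of 0.84 (SE 0.21, adjusted p = 0.0282). ES23-4 was at 0 and ES23-7 at 0.0245 FPKM, while the 4 other brains without Hox expression ranged between 0.563 and 1.49 FPKM. The call for Tph2 was lost without ES23-4, ES23-7, SAC12-5, SAC12-7, SAC26-7 or SAC26-8, with adjusted p-values up to 0.0669, and with pseudocounts of 0.1 and 0.01. Slc6a4, the serotonin transporter, had 0.923 to 2.24 FPKM (median 1.44) against 0.144 to 1.03 FPKM (median 0.699), a log2 difference of 0.64 (adjusted p = 0.0281, up to 0.0652 without 1 library and lost without ES23-4, ES23-7, SAC12-5, SAC26-7 or SAC26-8). Serotonergic genes were thus present in most brains that lacked Hox expression, and lowest in ES23-4 and ES23-7.

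Cerebellar genes separated SAC12-6 from the other brains without Hox expression. Of 21 tested genes of the cerebellum 10 (47.6%) rose, against 6.55% of all genes, and none fell (median log2 difference 0.33). The count was 3 without SAC26-8, 4 without ES23-4, 5 without SAC26-7, 6 without SAC12-7 and 11 without SAC12-6. Skor2, a factor of immature Purkinje cells, had 1.21 to 2.07 FPKM (median 1.75) with Hox expression and 0 to 1.58 FPKM (median 0.129) without, a log2 difference of 1.07 (SE 0.19, adjusted p = 0.0110). The 5 PAE brains without Hox expression were at 0 to 0.213 FPKM and SAC12-6 at 1.58 FPKM, inside the range of the brains with it.

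Car8, a protein of the Purkinje cell that binds the receptor for inositol trisphosphate, had 8.82 to 14.8 FPKM (median 11.7) against 3.10 to 13.4 FPKM (median 3.99), a log2 difference of 1.09 (SE 0.25, adjusted p = 0.0215). The PAE brains without Hox expression had 3.10 to 4.59 FPKM and SAC12-6 had 13.4 FPKM, and the call was lost without ES23-4 or SAC26-8 (adjusted p up to 0.0531).

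Set as a percentage of the mean of the 6 brains with Hox expression, the caudal genes differed among the 6 brains without it. SAC12-6 had 19.0% for Lbx1, 21.1% for Pax2 and 13.5% for Slc6a5, where the highest of the 5 PAE brains had 4.91%, 3.76% and 3.17%, and for Tlx3 SAC12-6 had 40.2% against at most 8.58%. It had 78.4% for Dbh, 93.5% for Skor2 and 116% for Car8, where the highest of the 5 PAE brains had 7.03%, 12.6% and 39.7%. The cerebellar genes Pcp2 and Atoh1, chosen after their values were seen, stood at 130% and 119% in SAC12-6 and at no more than 6.71% and 4.06% in the 5 PAE brains. The Pcp2 model overlaps Pet100, so its level is uncertain. For the serotonergic genes the PAE brains reached further, with up to 48.4% for Tph2, 62.9% for Slc6a4 and 49.7% for Lmx1b, where SAC12-6 had 82.5%, 69.1% and 54.9%. Of these genes Lbx1, Pax2, Slc6a5, Tlx3 and Lmx1b were therefore below every brain with Hox expression in SAC12-6, while Dbh and the cerebellar genes named lay above the lowest of those brains. This is a description of 1 brain, and how that brain was dissected was not analysed here.

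**Figure D3:**
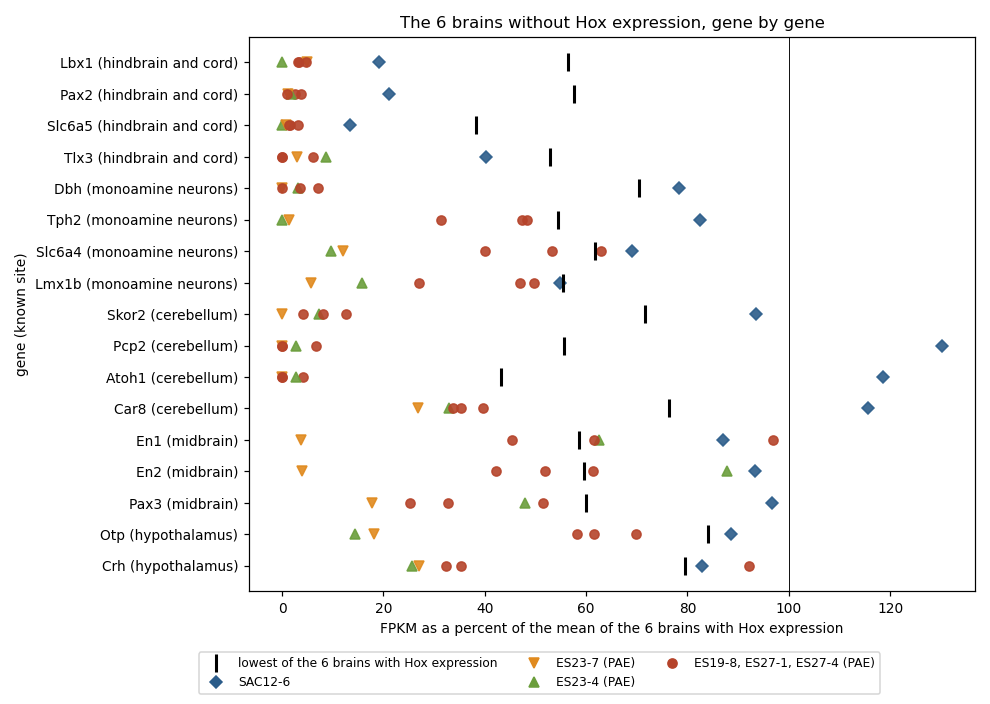
FPKM of 17 regional genes in each of the 6 brains without Hox expression, as a percentage of the mean of the 6 brains with it, with SAC12-6 and the 5 PAE brains as separate points and a black tick at the lowest of the 6 brains with Hox expression. SAC12-6 lies at 13.5% to 21.1% for Slc6a5, Lbx1 and Pax2 and at 93.5% to 130% for Skor2, Car8, Atoh1 and Pcp2.

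The 5 PAE brains without Hox expression were not alike in the levels of genes of regions further forward. Of 16 tested midbrain genes only Pax3 passed (6.25%, near the 6.55% of all genes), at a log2 difference of 0.55 (adjusted p = 0.0415). It was called with only 3 of the 12 libraries left out, SAC12-6, SAC12-7 or SAC26-5, with adjusted p-values up to 0.0933. ES23-7 was the lowest of all 12 brains for 14 of the 16, and how often it was lowest over all genes was not counted. En1 and En2, which mark the midbrain and the front of the hindbrain, were at 3.78% and 3.92% of the mean of the brains with Hox expression in ES23-7, and the highest of the 5 PAE brains had 97.0% and 87.8%. En1 was 0.264 FPKM in ES23-7, against 3.17 to 6.77 FPKM in the other 5 brains without Hox expression and 4.08 to 9.56 FPKM in the brains with it (adjusted p = 0.167).

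Of 15 tested hypothalamic genes 1 rose, Crh, a share of 6.67% that is near the 6.55% of all genes. Its log2 difference was 0.68 (adjusted p = 0.0296, lost without ES19-8, ES23-4, ES23-7, ES27-1, SAC12-5, SAC26-7 or SAC26-8 with values up to 0.0666). ES23-4 and ES23-7 were low for several others: Otp, a factor of neuroendocrine neurons, was 1.27 and 1.61 FPKM in them, against 5.13 to 7.82 FPKM in the other 4 brains without Hox expression and 7.43 to 10.9 FPKM in the brains with it. Pmch, the precursor of melanin-concentrating hormone, was 0.826 and 0.376 FPKM in ES23-4 and ES23-7, against 3.92 to 6.19 FPKM in the other 4 and 3.22 to 5.76 FPKM in the brains with Hox expression. The lowest values of both genes thus belonged to ES23-4 and ES23-7 and not to the whole group. No hypothalamic gene but Crh was called over all 12 brains, and 4 genes were called without SAC12-6.

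Of 16 tested genes of the thalamus and habenula 4 (25%) rose, against 6.55% of all genes, and none fell (median log2 difference 0.24). The 4 were Rora, Ntng1, Slc17a6 and Irx1, and Rora is also in the list of the cerebellum. Between 1 and 4 rises were called when 1 library was left out: 1 without ES23-4, SAC12-5, SAC26-7 or SAC26-8, and 2 without ES27-1. Rora, a nuclear receptor of thalamic relay and Purkinje neurons, had 2.43 to 3.27 FPKM against 0.814 to 2.47 FPKM, a log2 difference of 0.59 (SE 0.13, adjusted p = 0.0192).

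Genes of the cortex and of the subpallium were lower, as FPKM relative to the whole library, in the brains with Hox expression. Of 23 tested genes of cortical neurons and progenitors 14 (60.9%) fell, against 4.65% of all genes, and none rose, with a median log2 difference of -0.40. This count was 2 without ES23-4, 3 without SAC26-7 and 5 without SAC26-8, and 10 to 16 without any other library. It was 0 with both SAC12-5 and SAC26-7 left out, at a median of -0.33. Neurod6, a factor of cortical projection neurons, had 115 to 189 FPKM (median 146) with Hox expression and 178 to 268 FPKM (median 236) without, a log2 difference of -0.66 (SE 0.14, adjusted p = 0.0181). Fezf2, which specifies subcerebral projection neurons, had 13.6 to 22.3 FPKM (median 16.3) against 19.3 to 29.7 FPKM (median 26.5), a log2 difference of -0.59 (SE 0.13, adjusted p = 0.0181). In both genes SAC12-6 was the lowest brain without Hox expression, and ES19-4 and SAC26-5 were the highest with it, so the groups overlapped there.

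Emx1, a factor of the dorsal forebrain, had 3.63 to 6.51 FPKM (median 4.77) with Hox expression and 5.55 to 10.2 FPKM (median 8.59) without. Its log2 difference was -0.67 (SE 0.15, adjusted p = 0.0211, and 0.0520 without ES23-4). Within the treatments, ES19-4 was 6.51 FPKM against 7.46 to 10.2 FPKM in the 5 PAE brains without Hox expression, and the 5 SAC brains with it were 3.63 to 5.92 FPKM against 5.55 FPKM in SAC12-6.

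Of 21 tested genes of the subpallium and striatum 8 (38.1%) fell and 1 (4.76%) rose, against 4.65% and 6.55% of all genes. The median log2 difference was -0.31. Only 2 fell without ES23-4 or SAC26-7, 3 without SAC12-7, 4 without ES19-8, ES23-7 or SAC26-8, and 10 without ES19-4 or SAC12-6, and with both SAC12-5 and SAC26-7 left out none fell (median -0.34). Dlx5, a factor of inhibitory neurons of the forebrain, had 10.1 to 18.6 FPKM (median 13.7) against 17.4 to 22.1 FPKM (median 20.04), a log2 difference of -0.48 (SE 0.11, adjusted p = 0.0228, up to 0.0543 and lost without ES23-4 or SAC26-7). Lhx6, which directs interneurons of the medial ganglionic eminence, had 9.08 to 15.5 FPKM (median 13.2) against 15.5 to 20.9 FPKM (median 18.4), a log2 difference of -0.52 (adjusted p = 0.0210). Penk, the precursor of enkephalin, was the member that rose, with 28.7 to 43.4 FPKM (median 39.2) against 15.0 to 26.4 FPKM (median 20.4) and a log2 difference of 0.88 (SE 0.13, adjusted p = 0.00565). It is known from the striatum and also from the hindbrain and dorsal horn.

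**Figure D4:**
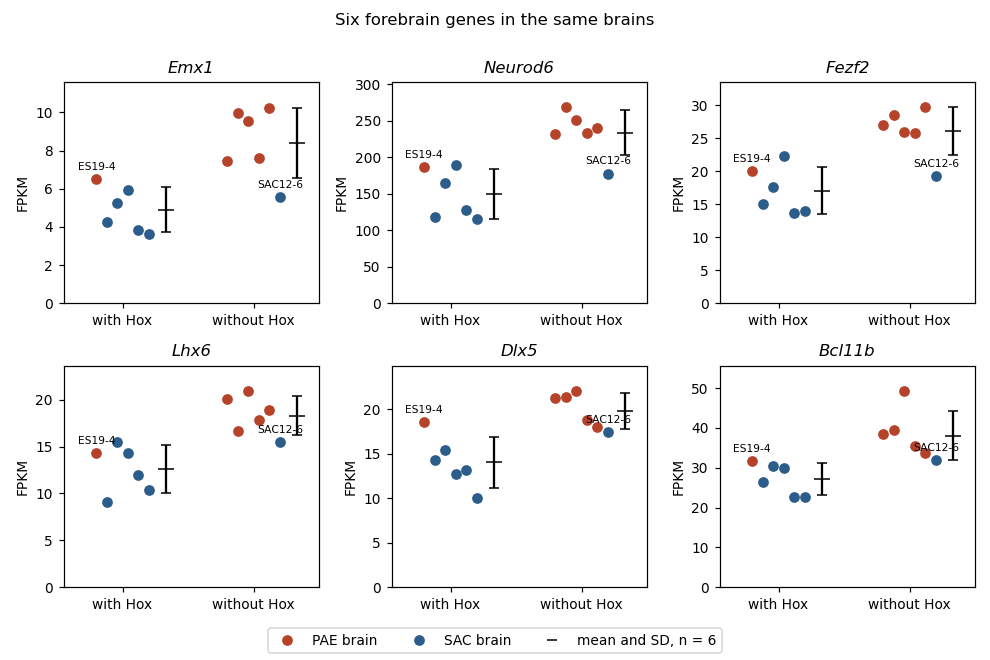
FPKM of Emx1, Neurod6, Fezf2, Lhx6, Dlx5 and Bcl11b in the 6 brains with Hox expression (left in each panel) and the 6 without (right), with PAE brains in red, SAC brains in blue, and bars for the mean and SD (n = 6 each). The levels are lower on the left in each panel, and the SAC brain on the right lies at or near the low end of its group.

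The falls were shallower than the rises. The largest fall among the named genes with groups that did not overlap was that of Rcor2, a corepressor of neural progenitors, with 15.8 to 19.95 FPKM against 20.8 to 31.1 FPKM and a log2 difference of -0.50 (adjusted p = 0.0108). Ezh2, the methyltransferase of the Polycomb complex that keeps Hox clusters silent, had 8.80 to 10.5 FPKM against 11.6 to 15.7 FPKM, a log2 difference of -0.46 (SE 0.07, adjusted p = 0.00437). A link of Ezh2 to the Hox level was not tested. Of 20 tested cell cycle genes 3 (15%) fell, against 4.65% of all genes, and none rose (median log2 difference -0.26). The count of falls was 0 without ES23-4, ES27-4, SAC12-5, SAC26-7 or SAC26-8, 1 without ES19-4, ES23-7, ES27-1 or SAC12-7, and 10 without SAC12-6.

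Glial genes were higher with Hox expression. Of 16 tested astrocyte genes 9 (56.25%) rose, against 6.55% of all genes, and none fell (median log2 difference 0.40). The count of rises ran from 6 to 10 with 1 library left out. The count was 6 without ES23-4, SAC12-7, SAC26-7 or SAC26-8. Aqp4, the water channel of astrocyte endfeet, had 7.78 to 14.0 FPKM (median 8.88) with Hox expression and 1.82 to 6.81 FPKM (median 2.96) without, a log2 difference of 1.32 (SE 0.22, adjusted p = 0.00842). Sparcl1, a matrix protein secreted by astrocytes, had 192 to 251 FPKM (median 211) against 106 to 178 FPKM (median 132), a log2 difference of 0.70 (SE 0.11, adjusted p = 0.00701). Gfap, the filament protein of mature astrocytes, was not called, with 2.03 to 3.30 FPKM against 0.9 to 3.01 FPKM and an adjusted p of 0.153.

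Of 12 tested genes of the oligodendrocyte lineage 6 (50%) rose, against 6.55% of all genes, and none fell (median log2 difference 0.35). The count of rises was 3 without ES23-4, SAC12-7, SAC26-7 or SAC26-8, 4 without ES23-7 and 8 without SAC12-6. Bcas1, a marker of newly formed oligodendrocytes, had 2.74 to 5.14 FPKM (median 3.86) against 1.23 to 2.58 FPKM (median 1.59), a log2 difference of 0.84 (SE 0.13, adjusted p = 0.00622). Sox10, the lineage factor of oligodendrocytes and Schwann cells, had 4.80 to 5.70 FPKM (median 5.20) against 2.69 to 4.32 FPKM (median 3.37), a log2 difference of 0.51 (SE 0.09, adjusted p = 0.0110). Mbp, the main myelin protein, was 3.22 to 4.31 FPKM against 2.51 to 3.74 FPKM and did not pass (adjusted p = 0.0806). In SAC12-6 Aqp4, Sparcl1 and Bcas1 were the highest of the group without Hox expression, at 6.81, 178 and 2.58 FPKM.

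Hox cofactors and genes of retinoic acid, the signal that sets Hox borders, moved in both directions. Of 18 tested, 4 (22.2%) rose and 2 (11.1%) fell, against 6.55% and 4.65% of all genes, with a median log2 difference of -0.02. The falls were not called without ES23-4 or SAC26-8, and 1 fall was called without SAC12-5, SAC12-7 or SAC26-7. Meis1 had 2.55 to 4.46 FPKM (median 3.23) with Hox expression and 1.29 to 2.56 FPKM (median 1.61) without, a log2 difference of 0.66 (SE 0.12, adjusted p = 0.0106). Cyp26b1, which degrades retinoic acid, had 4.98 to 9.17 FPKM (median 7.45) against 2.57 to 6.32 FPKM (median 3.75), a log2 difference of 0.74 (adjusted p = 0.0187), and Pbx3 rose by 0.28 (adjusted p = 0.0141). Rarb, a retinoic acid receptor that the striatum expresses strongly, had 2.52 to 3.88 FPKM (median 3.17) against 3.93 to 6.59 FPKM (median 4.50), a log2 difference of -0.47 (adjusted p = 0.0267, up to 0.0620 without ES23-4, SAC12-7, SAC26-7 or SAC26-8). It overlaps Top2b on the other strand.

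Markers of tissue that adheres to a dissected brain moved in part with single brains. Of 11 tested genes of sensory ganglia 3 (27.3%) rose, against 6.55% of all genes. These were Prph, Sncg and Prrxl1, all also expressed in the hindbrain, and their calls held with each single library left out. The defining ganglion genes Avil and P2rx3 averaged under 0.5 FPKM and were not tested. Avil had 1.66 FPKM in SAC12-5 and 1.56 FPKM in SAC26-7, against 0.201 to 0.480 FPKM in the other 4 brains with Hox expression and 0.0747 to 0.264 FPKM in the brains without. The same 2 brains had 1.30 and 1.09 FPKM of P2rx3, 37.1 and 65.0 FPKM of the pituitary hormone gene Gh, and the highest Prph. Among the other 10 brains, Gh was at most 3.20 FPKM, in ES19-8. With both brains left out, a fit added after seeing the data, 4 brains with Hox expression remained. In it Prph, at 8.12 to 10.9 FPKM in these 4 brains, had a log2 difference of 1.98 (adjusted p = 1.11e-05), Sncg of 2.14 (adjusted p = 0.0211) and Prrxl1 of 1.02 (adjusted p = 0.0541). Of the 97 named genes called over 12 brains 25 kept the call, among them Pax2, Lbx1, Tlx3, Slc6a5, Lamp5, Syt2, Ngfr, Nefh, Ret and Gm43796. Over all 13411 genes 35 rose in this fit. The count of rises was 4 of 26 hindbrain and spinal factors, 7 of 13 motor and cholinergic genes, 1 of 11 genes of glycinergic and inhibitory transmission and 2 of 16 astrocyte genes, and 1 of 18 Hox cofactors and retinoic acid genes. None was called among the serotonin and noradrenaline, cerebellar, midbrain, hypothalamic, thalamic, oligodendrocyte, cell cycle or blood genes. The median log2 difference was 0.63 for the hindbrain and spinal factors, 0.80 for the motor and cholinergic genes and 0.32 for the cerebellar genes.

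Summed over the 14 tested genes of meninges and connective tissue, FPKM ranged between 65.3 and 92.2 with Hox expression and between 37.8 and 85.5 without. Of the 14, 1 gene (7.14%, near the 6.55% of all genes) passed. This was Crabp2 (adjusted p = 0.0324, up to 0.0694, and lost without ES19-8, ES23-4, ES27-4, SAC12-5, SAC26-7 or SAC26-8). ES27-4 was the lowest brain for 12 of the 14, and how often it was lowest over all genes was not counted. Of 7 blood genes 3 (42.9%) rose, against 6.55% of all genes. Among them was Hba-a1, with 501 to 835 FPKM (median 646) against 412 to 607 FPKM (median 435) and an adjusted p of 0.0279 (up to 0.0621). None of the 7 was called without ES19-8, ES23-4, ES23-7, ES27-1, SAC12-5, SAC26-7 or SAC26-8, 1 was called without ES19-4 and 5 without ES27-4. None of 13 genes of endothelium and microglia, 3 of skeletal muscle or 5 of cartilage and bone passed, with median log2 differences of 0.01, 0.10 and -0.07. Of 5 pituitary genes Chga (20%), which neurons also express, passed (adjusted p = 0.0273, lost without ES23-4, SAC26-7 or SAC26-8). Among 10 genes of choroid plexus and ependyma Enpp2 (10%) passed (adjusted p = 0.0429, up to 0.0884, held only without ES23-7, SAC12-6 or SAC26-5). Of 4 Schwann cell genes Sox10 (25%) passed. Over all genes 6.55% were higher, and in such short lists 1 gene makes a large share. The part of adhering tissue in the results was not tested further.

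**Figure D5:**
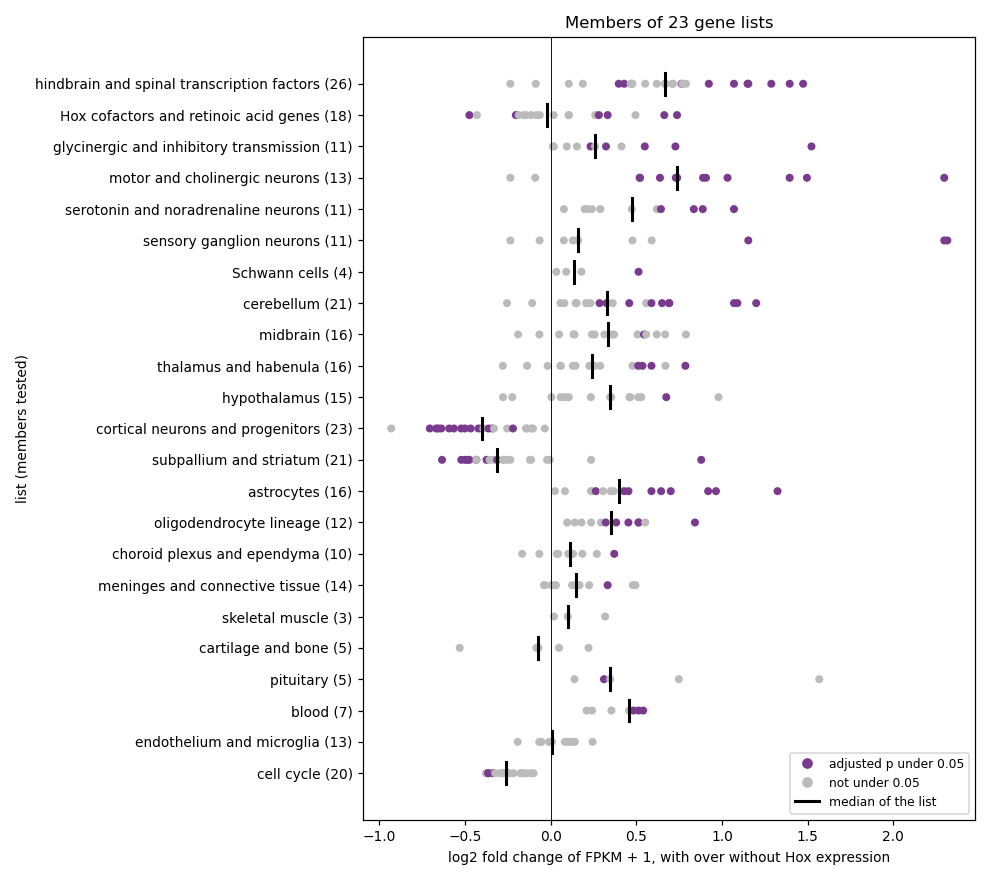
Log2 difference (brains with minus brains without Hox expression) of each tested member of the 23 lists, 1 list per row, with genes at an adjusted p under 0.05 in purple and a bar at the median of the list. Motor and cholinergic genes (median 0.74) and hindbrain and spinal transcription factors (median 0.67) lie farthest to the right and cortical genes (median -0.40) farthest to the left.

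With treatment and Hox group in 1 model, 13 genes (0.0969%) were called for the Hox group, 10 higher and 3 lower, and 1335 had an unadjusted p under 0.05. Among the 10 were Gm43796, Prph, Syt2, Lamp5, Pax2, Ngfr, Plek2, Lbx1 and Nefh. The adjusted p was 0.00917 for Prph, Syt2 and Lamp5, 0.0119 for Pax2 and Ngfr, and 0.0489 for Plek2, Lbx1 and Nefh. The last 3 were near the threshold. With each of the 12 libraries left out in turn, Plek2 and Nefh were called in only 2 of the 12 omissions and Lbx1 in 5. In this model the term rests on ES19-4 and SAC12-6: without ES19-4 only 2 of the 13 calls were kept, Gm43796 and Stx16, and adjusted p-values rose as far as 0.374 for Pax2. Without SAC12-6 there were 43 calls, 6 of them among the 13, and without ES23-4, ES27-1 or ES27-4 there were 8. Gm43796 was called in all 12 omissions.

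The 3 genes lower with Hox expression in that model were Stx16, Ogt and Mtf2. Stx16, a syntaxin of the Golgi, had 6.35 to 7.21 FPKM (median 7.13) with Hox expression and 8.40 to 11.7 FPKM (median 8.77) without, a log2 difference of -0.36 (adjusted p = 0.0134, and 0.0119 with treatment in the model). Its call in the model was lost without SAC12-6 (adjusted p = 0.104), which at 11.7 FPKM was the highest brain. Ogt, the enzyme that adds GlcNAc to nuclear proteins, had 20.6 to 26.9 FPKM (median 25.7) against 28.8 to 33.4 FPKM (median 30.0), and Mtf2, a Polycomb accessory protein, had 10.5 to 13.2 FPKM (median 11.7) against 14.3 to 17.0 FPKM (median 15.0). Both were near the threshold in the model (adjusted p = 0.0489 and 0.0490), and were called in only 2 of the 12 omissions.

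For PAE vs. SAC in the same model, 0 genes (0%) were called by limma, and 1174 had an unadjusted p under 0.05. With no Hox term, 1207 genes were called for PAE vs. SAC, and 717 of them were also called for the Hox split. Leaving out SAC12-6 gave 11 calls for the treatment term and leaving out ES19-4 gave 9. An interaction of Hox group and treatment, added after seeing the data, was called for 9 genes (0.0671%), none of them among the genes named here. It sets ES19-4 alone and SAC12-6 alone against the other brains of their treatment, so it rests on single brains.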

How the data were processed

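Polyadenylated RNA of 12 E18 whole brains (6 PAE and 6 SAC) was sequenced by the authors from 1 μg total RNA with a stranded Kapa kit, as paired ends of 150 bases. Per the paper's methods and the submitters' processing notes, reads were checked with FastQC, trimmed with cutadapt, aligned with HISAT2 and quantified with StringTie and Ballgown. The sources used here state neither versions nor whether counting used strand. The values deposited by the authors are FPKM per gene. Read counts and depth are unknown, and FPKM summed to between 218026 and 232863 per library. The table holds 13770 gene models and 1 emptied line, and 12 symbols have several models. The paper names the build GRCm28, and 12627 gene positions equal those of GENCODE M21 (GRCm38).

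Brains were grouped by mean Hox FPKM, and the genes, lists and brains were chosen with earlier results of these data known. For 13411 genes other than Hox genes whose mean FPKM was 0.5 or more (344 were under it), log2(FPKM + 1) was fitted in R 4.3.3 with limma 3.58.1 (empirical Bayes moderation with a trend) and Benjamini-Hochberg adjustment over all of them, for Hox group alone and with treatment. All adjusted p-values are limma's. Fold changes on this scale understate low genes. Groups set by a measured value were not assigned, so p-values describe how genes went with the Hox level over these brains. Whether brains share litters is not stated, and p-values cover only the spread between brains. Overlapping gene models (2594 tested genes) are uncertain. Genes named were the 12 largest rises and 10 largest falls that were called and did not overlap, the 6 smallest p of each term of the second model and up to 4 members per list with the smallest p (106 genes), and 31 more, such as Atoh1, Ret and Lhx1, chosen after their values were seen. A few genes that these rules also name are not reported here. Alternatives were pseudocounts, filters, scaling, sex, weights, no moderation, a continuous Hox level, the name prefix as a block and omission of each library. Added after seeing the data were the interaction, PAE vs. SAC alone and the omission of both SAC12-5 and SAC26-7.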

Additional observations from a re-analysis of the deposited data

Results flagged for a closer look

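In 33 of 276 sets of 6 brains (11.96%), 1 brain stood apart from the other 5 by Dixon's ratio on log2(FPKM + 1). Chance gives about 1 in 20, but 31 of the genes were chosen after their values were seen and the mean Hox level set the groups, so nothing is read from the share. SAC12-6 was that brain in 19. Among the brains without Hox expression it was the highest for Pax2 (0.447 FPKM), Lbx1 (0.334), Tlx3 (0.626) and Slc6a5 (0.302), and for the mean of the Hox genes at 0.0309. It was also highest for the noradrenergic gene Dbh (0.885 FPKM), the cerebellar genes Pcp2 (2.57), Atoh1 (1.02), Skor2 (1.58) and Car8 (13.4), and for Skor1 (1.02), Lamp5 (1.34), Syt2 (0.968), Stx16 (11.7) and Pthlh (0.808). It was lowest for the cortical genes Neurod6 (178 FPKM) and Fezf2 (19.3). It was lowest as well for Uqcc1 (2.91 FPKM) and Arhgef2 (9.42 FPKM), which were named for the treatment term.

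Among the brains without Hox expression, ES23-7 was lowest for En1 (0.264 FPKM), Mab21l2 (1.17), Slc17a6 (14.2), Onecut3 (0.235) and Chga (40.5). ES27-4 was lowest for the meningeal genes Col3a1 (1.65 FPKM) and Aldh1a2 (0.719). ES19-8 was highest for the pituitary genes Gh (3.20 FPKM) and Cga (0.0776), and ES23-4 for Gm43796 (0.541 FPKM).

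Among the brains with Hox expression, SAC12-7 was highest for Hmx3 (1.27 FPKM) and Actn2 (2.26 FPKM), and SAC12-5 was lowest for Cx3cr1 (0.435 FPKM). ES19-4 was listed at 0 for Gm45736, where the other 5 brains were above 0. No cause was tested for any of these values.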

How the results depend on the processing

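Over the alternatives that left all 12 brains in the fit without a block, the count of genes higher with Hox expression stayed within 1.5 times 879 except without moderation (530), and the count of lower genes within 1.5 times 624 except without moderation (356). Without any 1 library these counts ran between 317 and 1312 and between 133 and 1073. Sex in the model and library quality weights gave 1118 and 990 higher genes. With treatment in the model, the 13 calls became 5 with a pseudocount of 0.01, 7 with a filter at 1 FPKM, 8 with a filter at 0.1 FPKM or none, 8 after quantile normalization, 5 with sex, 1 without moderation, 30 with a continuous Hox level, and 8 to 43 without 1 library. The treatment term, at 0 calls, had 1 with library quality weights and 0 to 11 without 1 library. Of 97 named genes that were called, 61 kept the call without each library in turn and 36 lost it at least once.

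With the name prefix as a replicate block, 2 genes were higher and 1 lower (700 with an unadjusted p under 0.05). This fit compares brains only within ES19 and SAC12, the prefixes found in both groups, cannot hold treatment, and the labels do not say what a prefix marks. There the log2 difference reversed for Uqcc1 (0.10), Gfap (-0.18), Flt1 (-0.0652), Acta1 (-0.0411), Pmch (-0.37), Wdr74 (0.34), Pthlh (-0.0109), Actn2 (-0.15), Kdr (-0.0522) and Gm45736 (-0.39). Actn2 also reversed after quantile normalization (-0.0182). Without 1 library, Actn2 ran between -0.0399 and 0.0719, Pmp22 between -0.0550 and 0.19, and Fabp7 between -0.00376 and 0.0738, and none of these 3 was called. With both SAC12-5 and SAC26-7 left out, 35 genes were higher, 11 lower and 5 called with treatment in the model, and Fabp7 (-0.0159), Gh (-0.29) and Cga (-0.0180) reversed, none of them called. The cause was not tested. Read depth, which would set the error of low values such as Lbx1 in brains without Hox expression, is unknown.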

Other observations

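Of the 102 genes at least 1.5-fold higher with Hox expression, 61 were in none of the lists, and some of them are described here, chosen after their values were seen. Kcna2, a voltage-gated potassium channel of axons, had 2.21 to 3.94 FPKM (median 3.51) with Hox expression and 0.942 to 2.64 FPKM (median 1.52) without, a log2 difference of 0.72 (SE 0.14, adjusted p = 0.0150). Skor1, a relative of Skor2 found in dorsal interneurons, had 1.14 to 2.04 FPKM (median 1.65) against 0.170 to 1.02 FPKM (median 0.264), a log2 difference of 0.96 (SE 0.13, adjusted p = 0.00283). Mafa had 1.503 to 4.62 FPKM (median 3.39) against 0.0703 to 1.83 FPKM (median 0.533), a log2 difference of 1.33 (SE 0.25, adjusted p = 0.0125), with ES19-4 the highest of all 12 brains. Irx4, Ebf2 and Tfap2a rose by 0.63, 0.66 and 0.70 (adjusted p of 0.0106, 0.0140 and 0.0192). The call for Onecut3 (log2 difference 0.68, adjusted p = 0.0304) was lost without ES23-4, SAC12-5, SAC12-7, SAC26-7 or SAC26-8 (up to 0.0658).

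Slc6a11, a GABA transporter of astrocytes, had 19.97 to 30.8 FPKM (median 22.98) with Hox expression and 9.29 to 18.4 FPKM (median 13.1) without, a log2 difference of 0.86 (SE 0.14, adjusted p = 0.00947). Hepacam, an adhesion protein of their endfeet, had 7.97 to 11.4 FPKM (median 9.64) against 4.36 to 6.81 FPKM (median 4.93), a log2 difference of 0.76 (SE 0.11, adjusted p = 0.00367). Lynx1, a modulator of nicotinic receptors, had 4.63 to 5.97 FPKM (median 4.87) against 1.86 to 3.85 FPKM (median 2.30), a log2 difference of 0.84 (adjusted p = 0.00356). Chrna4, a subunit of those receptors, had 8.39 to 12.1 FPKM (median 9.99) against 3.65 to 8.35 FPKM (median 7.01), and its call (adjusted p = 0.0293) was lost without ES23-4, SAC12-5, SAC26-7 or SAC26-8 (up to 0.0685).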
